A study of Mus musculus with 48 samples.

Results

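The genes described here encode the liver's conjugation enzymes: glutathione S-transferases (Gst and the microsomal Mgst), UDP-glucuronosyltransferases (Ugt) and sulfotransferases (Sult). They were found by symbol in the array's annotation, among probe sets that carry 1 gene symbol, and each gene was represented by the probe set with the highest mean over the 48 arrays. The search found 48 genes of 19938 with such a probe set, made up of 22 Gst or Mgst, 10 Ugt and 16 Sult genes. A further 12 probe sets of these families carry several symbols, among them those of the Ugt1a locus and of Gsta1 with Gsta2, and were not used.

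The livers came from F1 mice of either sex, whose median lobe was taken at 3 weeks of age. Their sires had eaten a control diet (CD) or a low-protein diet (LPD) from week 3 to week 12. The offspring carry 3 labels, wild-type (WT), ATF7+/- and ATF7+/+, which with the sire's diet give 6 groups of 8 arrays. A group is written as its label and diet: WT_CD and WT_LPD, for example, are the wild-type offspring of CD and of LPD sires. ATF7 is a stress-responsive transcription factor that binds chromatin, and in ATF7+/- mice 1 copy of its gene is lost. The labels do not say which parent carried the allele, how the ATF7+/+ mice relate to the wild-type ones, or which animals were litter mates. All offspring were themselves untreated, so every diet comparison is between sires.

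Conjugation is the second phase of the removal of foreign and endogenous compounds. Glutathione S-transferases join glutathione to reactive electrophiles, UDP-glucuronosyltransferases in the endoplasmic reticulum add glucuronic acid from UDP-glucuronic acid to steroids, bilirubin and drugs, and cytosolic sulfotransferases transfer a sulfonate group from the donor PAPS to phenols, steroids and bile acids. The products are more soluble and leave the hepatocyte through export pumps. The transcription factor NRF2 and the nuclear receptors CAR and PXR are the best known activators of these genes, and several sulfotransferases of the Sult2a and Sult3a groups are known for higher levels in female than in male mouse liver.

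Values are log2 expression per probe set as the authors normalized them, so a difference of 1 is a doubling. After 2 pairs of near-identical arrays were each counted as 1 sample, 46 samples remained, 7 in WT_CD and in ATF7+/+_CD and 8 in each other group. The samples fell into 2 array sets along the first principal component, A with 18 arrays (3 a group) and B with 30 (5 a group), which the labels do not mention. Array set differed for 25 of the 36 tested conjugation genes (69.4%) and for 68.0% of all genes, so within-set values are given beside the main results. The 8 hepatocyte markers averaged 12.59 to 12.97 over the wild-type samples, as fits the labelled tissue. One sample stood apart for these families: WT_CD replicate 8 was the lowest of the 46 samples for 17 of 36 genes (47.2%), against 8.54% of all genes tested. Across the 36 genes the largest of the 6 group SDs was that of WT_CD for 22 (61.1%, against 30.6% of all genes). Values without replicate 8 are given beside most wild-type results of the conjugation genes. They are not given for the lists of other genes or for the cell markers.

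Of the 48 genes, 36 had a mean at or above the array's 40th percentile (5.46) and were tested: 19 Gst or Mgst, all 10 Ugt and 7 Sult. The other 12 were Gsto2, Gstt4, Mgst2, Sult1c1, Sult1e1, Sult2a6, Sult2b1, Sult3a1, Sult3a2, Sult4a1, Sult6b1 and Sult6b2. Their group means ran from 2.56 for Sult3a1 in WT_CD to 5.38 for Sult4a1 in ATF7+/-_LPD. Each comparison was tested with limma over 13542 genes, and an adjusted p (Benjamini-Hochberg) under 0.05 is called a rise or a fall. The series' description calls the 8 experiments of a group independent but names no litters, so the p-values measure the spread between these samples.

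Between sire diets 3 conjugation genes were called in wild-type offspring, all of the mu class of glutathione S-transferases: Gstm6, Gstm2 and Gstm5. None of them was called with the 2 wild-type groups fitted alone. Gstm2 and Gstm5 were also lost in most fits that left out 1 wild-type sample. The 7 mu-class genes lie next to one another on chromosome 3 in the RefSeq order Gstm5, Gstm7, Gstm6, Gstm3, Gstm2, Gstm1, Gstm4. RefSeq promoter windows are shown for the 3 genes that rose and for Gstm7, which was called once array set was allowed for. These 4 were chosen by their calls in these data, and Gstm1, Gstm3 and Gstm4 of the same cluster are not shown. Each window runs from 250 bases before to 50 after an annotated start, on the gene's strand, in build GRCm38.p6. Capitals mark the core of the antioxidant response element, the NRF2 site, searched as TGACNNNGC on both strands. The Gstm6 window is the most upstream of its 3 (chr3:107953417-107953716, minus strand), that of Gstm2 is its single one (chr3:107986371-107986670, minus strand), as is that of Gstm5 (chr3:107895604-107895903, plus strand), and the Gstm7 window is the one of its 2 that holds the core (chr3:107931565-107931864, minus strand).
Gstm6: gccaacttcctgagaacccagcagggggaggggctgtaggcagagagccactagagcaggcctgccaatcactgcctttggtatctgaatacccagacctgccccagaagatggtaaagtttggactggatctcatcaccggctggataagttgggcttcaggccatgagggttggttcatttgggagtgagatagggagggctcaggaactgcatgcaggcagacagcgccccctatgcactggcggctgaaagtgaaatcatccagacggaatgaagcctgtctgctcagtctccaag
Gstm2: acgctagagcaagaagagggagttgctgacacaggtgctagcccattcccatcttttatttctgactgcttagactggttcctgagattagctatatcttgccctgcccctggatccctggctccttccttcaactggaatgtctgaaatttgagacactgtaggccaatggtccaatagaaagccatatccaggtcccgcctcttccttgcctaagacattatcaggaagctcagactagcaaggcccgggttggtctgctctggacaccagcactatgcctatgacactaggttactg
Gstm5: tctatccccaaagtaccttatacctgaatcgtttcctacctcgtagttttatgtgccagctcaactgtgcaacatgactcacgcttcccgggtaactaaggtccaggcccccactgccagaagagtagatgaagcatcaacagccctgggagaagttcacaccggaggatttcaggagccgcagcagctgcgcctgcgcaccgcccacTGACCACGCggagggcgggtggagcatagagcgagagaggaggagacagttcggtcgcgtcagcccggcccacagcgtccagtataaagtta
Gstm7: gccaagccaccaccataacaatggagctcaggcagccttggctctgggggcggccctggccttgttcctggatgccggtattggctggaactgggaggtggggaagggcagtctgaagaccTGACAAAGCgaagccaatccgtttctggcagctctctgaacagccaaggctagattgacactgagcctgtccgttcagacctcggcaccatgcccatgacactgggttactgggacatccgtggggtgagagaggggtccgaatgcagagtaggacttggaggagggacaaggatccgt

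The core stands 42 bases before the start of Gstm5 (TGACCACGC) and 129 bases before that of Gstm7 (TGACAAAGC). No window of Gstm6 or Gstm2 holds these letters. Windows were found for 44 of the 48 genes; 4 of their 56 windows (7.14%) held the core, those of Gsta3, Gstm5, Gstm7 and Mgst1, against 12.4% of all 32851 windows. The palindromic site of the liver factor HNF1, searched on both strands with 1 free base at its centre, was in none of the 56 and in 3 of all windows (0.00913%).

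Gstm6 encodes a mu-class transferase. In WT_CD its log2 level ran from 7.91 to 9.51 with a median of 8.69, and in WT_LPD from 9.38 to 9.86 with a median of 9.57. The ranges overlapped, and 5 of the 8 WT_LPD samples lay above every WT_CD sample. The low WT_CD samples were replicates 3, 6, 7 and 8, at 8.69, 8.49, 8.56 and 7.91. The mean was 8.84 ± 0.59 (SD, n = 7) in WT_CD and 9.57 ± 0.16 (SD, n = 8) in WT_LPD, a 1.66-fold rise (log2 0.73 ± 0.15 SE, 95% interval 0.43 to 1.03, adjusted p = 0.0024). The 4 groups of the other labels had means from 9.51 to 9.67, close to WT_LPD, so WT_CD was the low group of the 6. Within array set A the 3 WT_CD samples (7.91 to 8.56) were all below the 3 WT_LPD samples (9.38 to 9.42), and within set B the 4 WT_CD samples (8.69 to 9.51) were all below the 5 WT_LPD samples (9.52 to 9.86). Gstm6 was the 1 conjugation gene of 36 to separate in this way in both sets, as 1.72% of all genes did, a description added after the values were seen. Within set A the rise was 1.09 (adjusted p = 0.00179) and within set B 0.44 (adjusted p = 0.0473). Without WT_CD replicate 8 it was 0.57 (adjusted p = 0.0136), and it passed in all 15 fits that left out 1 wild-type sample. With the 2 wild-type groups fitted alone it did not pass (adjusted p = 0.0802).

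Gstm2, another mu-class enzyme, ran from 8.64 to 9.80 with a median of 8.96 in WT_CD and from 9.33 to 10.10 with a median of 9.76 in WT_LPD. The ranges overlapped between 9.33 and 9.80, and 2 WT_LPD samples lay above all of WT_CD. The rise was 1.41-fold (log2 0.50 ± 0.14 SE, adjusted p = 0.0364; set A 0.58, set B 0.38). Without WT_CD replicate 8 it was 0.41 (adjusted p = 0.144), and 9 of 15 fits with 1 wild-type sample left out did not call it.

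Gstm5, a mu-class gene better known from brain and testis, lay between 7.16 and 8.03 in WT_CD (median 7.56) and between 7.68 and 8.09 in WT_LPD (median 7.91). A single WT_LPD sample lay above the highest of WT_CD. It rose 1.26-fold (log2 0.33 ± 0.10 SE, adjusted p = 0.0394; set A 0.26, set B 0.38). Without WT_CD replicate 8 the difference was 0.27 (adjusted p = 0.163), and 10 of 15 such fits did not call it.

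**Figure D1:**
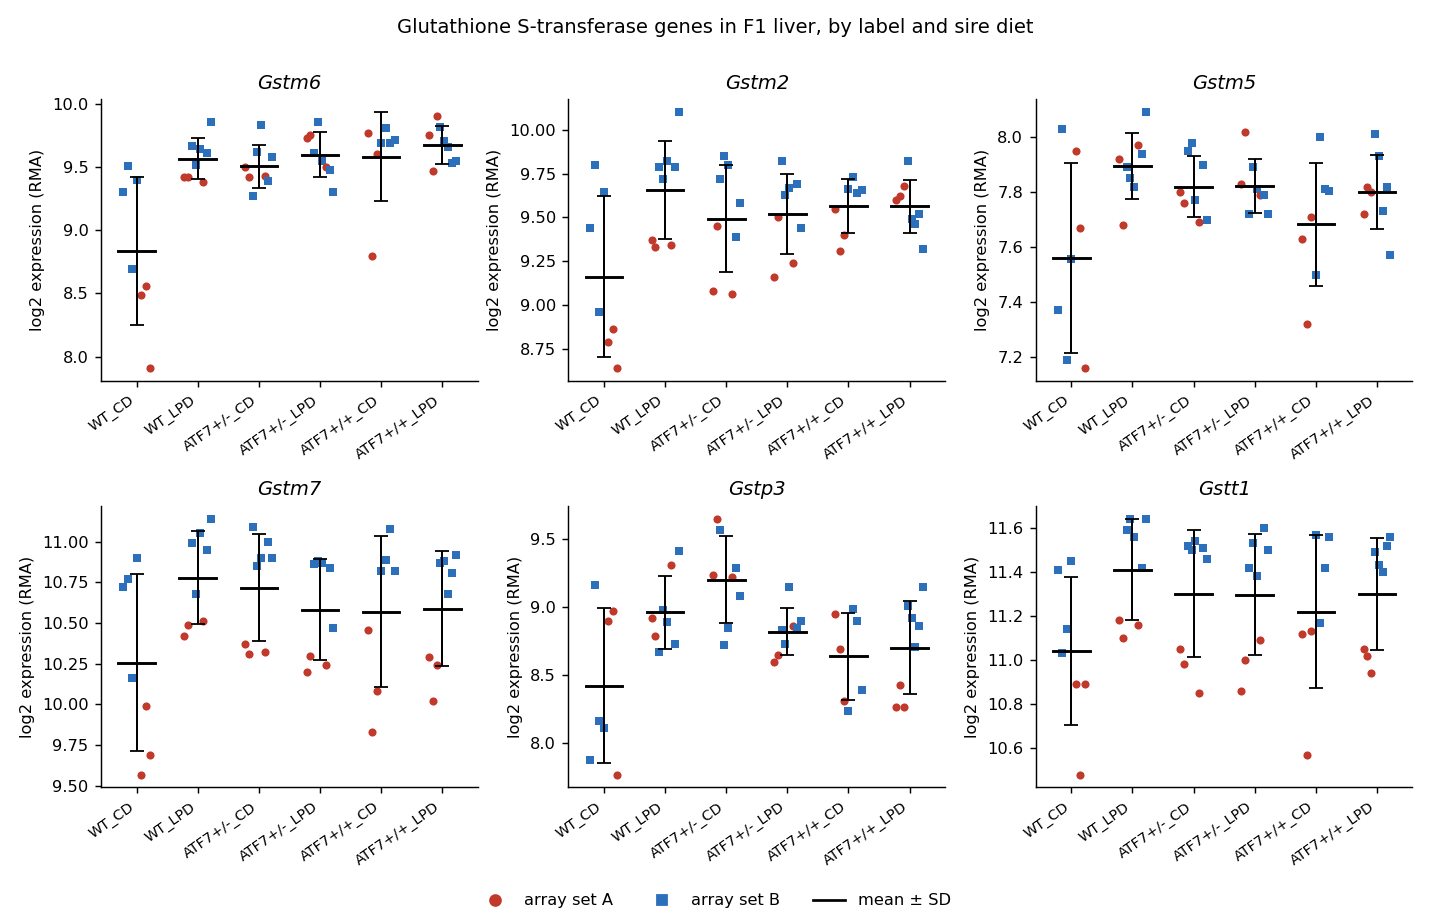
Log2 expression of Gstm6, Gstm2, Gstm5, Gstm7, Gstp3 and Gstt1 in each of the 46 samples, by offspring label and sire diet; circles are array set A, squares array set B, and the black bars give the group mean and SD. WT_CD has the lowest mean of the 6 groups for all 6 genes, and for Gstm6 its samples reach down to 7.91.

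The 3 calls are 8.33% of the 36 tested genes, against 3.6% of all genes, and all 3 rose, as did 2.78% of all genes. With 9 conjugation genes at an unadjusted p under 0.05 the share was 25.0%, against 15.9%. No conjugation gene had wild-type diet groups that did not overlap, as was so for 0.561% of all genes. Without WT_CD replicate 8, 1 gene was called (1.62% of all genes). With array set as a block the calls were 6 of 36 (16.7%, against 9.26% of all genes): Gstm7, Gstp3 and Gstt1 joined the 3 above. Set A alone called 8 (22.2%, against 15.6%) and set B alone 4 (11.1%, against 4.72%), and Gstm6 was the gene on both lists. In set A Gstm2, Gstm4, Gstm6, Gstm7, Ugt2b34 and Ugt2b36 were higher and Gstt2 and Sult1a1 lower with LPD sires. In set B Gstm6, Gstt1 and Sult1b1 were higher and Ugt2b35 lower.

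All 7 mu-class genes had a positive diet difference in wild-type mice, with a median of 0.49 against 0.00 for all genes tested, and medians of 0.66 within set A and 0.33 within set B. This reading rests in part on 1 sample: without WT_CD replicate 8, 5 of 7 were positive and the median was 0.27. Gstm7 ran from 9.57 to 10.90 in WT_CD (median 10.16) and from 10.42 to 11.14 in WT_LPD (median 10.82), and 4 WT_LPD samples lay above all of WT_CD. Its difference of 0.52 ± 0.19 SE was not called (adjusted p = 0.131; 0.000392 with array set as a block; set A 0.72, set B 0.33) and was 0.43 without replicate 8. Gstm4 gave 0.49 ± 0.23 (set A 0.94, set B 0.11) and 0.27 without replicate 8. The values of Gstm3 (0.20 ± 0.30; set A 0.66, set B -0.21) and Gstm1 (0.02 ± 0.15; set A 0.34, set B -0.25) turned negative without replicate 8, at -0.15 and -0.17, as they were within set B. Gstm3 has a second probe set, which gave 0.36 ± 0.48. Members of this class are close paralogs, and how far a probe set also reads its neighbours' transcripts was not tested.

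Outside the mu class, Gstp3 of the pi class and Gstt1 of the theta class came nearest to the threshold. Gstp3 ran from 7.77 to 9.16 in WT_CD (median 8.16) and from 8.67 to 9.41 in WT_LPD (median 8.91). Its difference was 0.54 ± 0.17 SE (adjusted p = 0.0723; 0.0397 with array set as a block; set A 0.46, set B 0.61), and 0.43 without WT_CD replicate 8 (adjusted p = 0.243). Gstt1 ran from 10.48 to 11.45 in WT_CD (median 11.03) and from 11.10 to 11.64 in WT_LPD (median 11.49). Both genes had WT_CD samples below all of WT_LPD and WT_LPD samples above all of WT_CD, and the ranges overlapped between. Gstt1 differed by 0.37 ± 0.15 SE (adjusted p = 0.17; 0.00122 with the block; set A 0.39, set B 0.31), and by 0.35 without that sample (adjusted p = 0.315). The Ugt and Sult families gave no wild-type diet call over all samples. The 10 Ugt genes had a median difference of 0.04 with the array sets in opposite directions (set A 0.38, set B -0.20), and without WT_CD replicate 8 it was -0.09 with 4 of 10 above 0. Ugt2b35, for example, differed by 0.22 within set A and by -0.62 within set B; over all samples the value was -0.27, and -0.47 without replicate 8. The 7 Sult genes had a median of 0.09, and Sult2a8, a hydroxysteroid sulfotransferase, had the largest value, 0.64 ± 0.30 SE (adjusted p = 0.286; set A 0.15, set B 0.99). Gsta3, an alpha-class enzyme with group means from 11.91 to 12.04, differed by -0.02 ± 0.07 SE in wild-type mice (-0.06 without replicate 8) and had the smallest within-group SD of the 36 genes, 0.13.

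**Figure D2:**
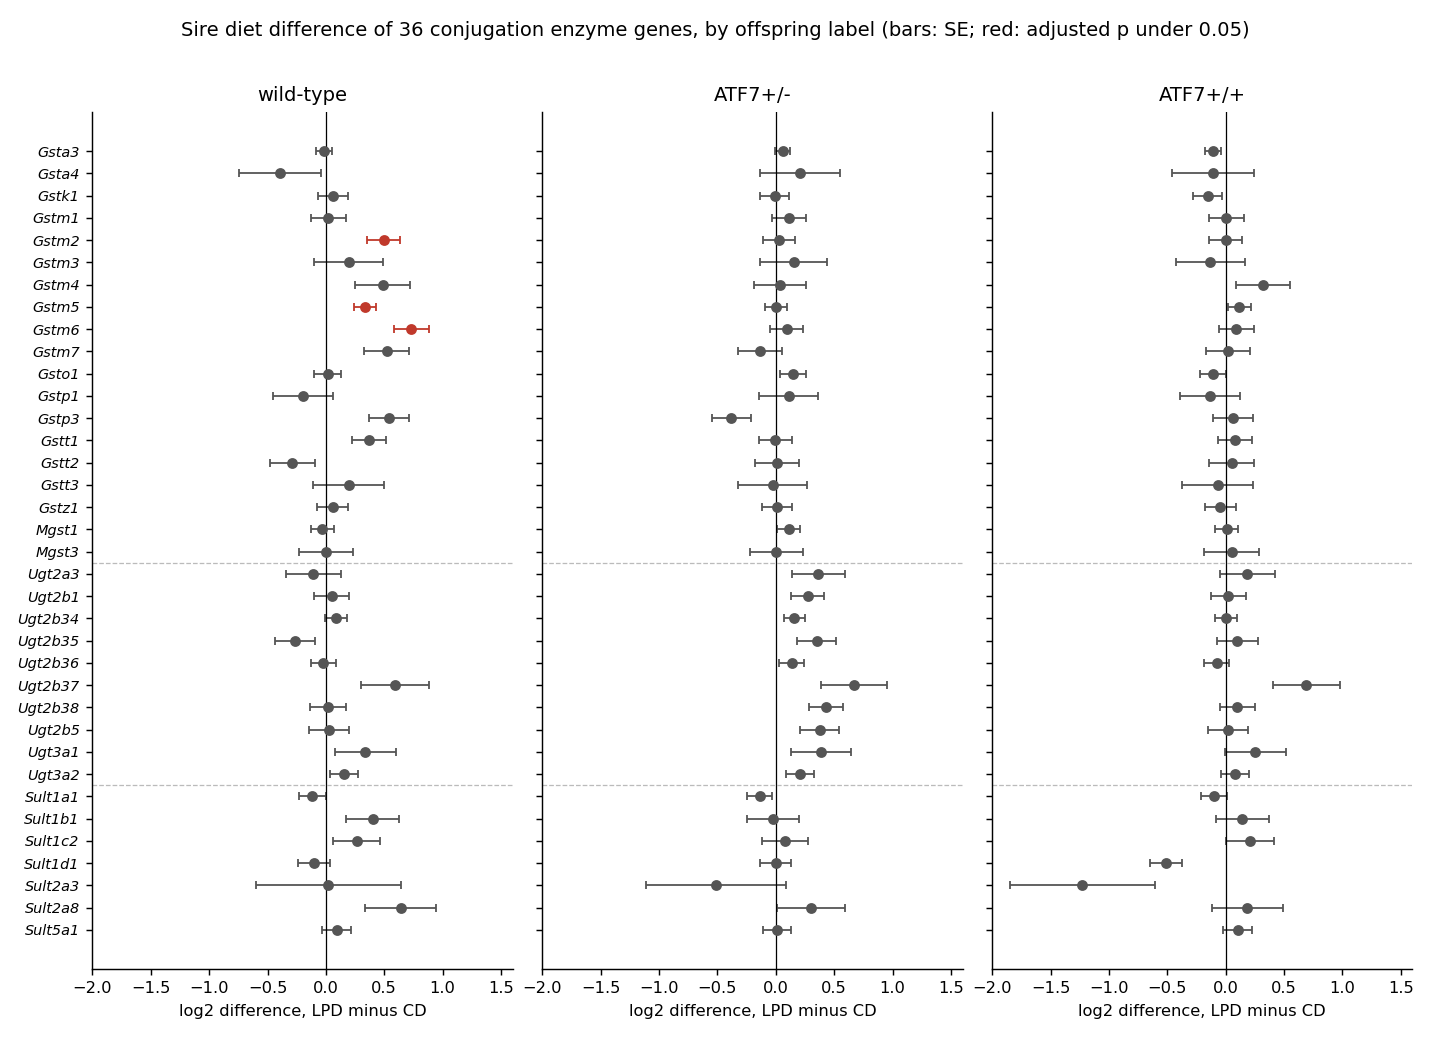
Log2 difference between offspring of LPD and of CD sires for the 36 tested genes, in wild-type, ATF7+/- and ATF7+/+ offspring; points are estimates, bars 1 SE, dashed lines part the Gst and Mgst, Ugt and Sult families, and red marks an adjusted p under 0.05. The 3 red points, Gstm2, Gstm5 and Gstm6, are all in the wild-type panel, and the 10 Ugt genes are all above 0 in the ATF7+/- panel.

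In ATF7+/- offspring no conjugation gene was called by limma, nor was any of the 13542 genes (0%), and 5 of 36 (13.9%) had an unadjusted p under 0.05, against 1.31% of all genes. Among those 5 were 4 Ugt2b genes, whose enzymes glucuronidate steroids and bile acids, and they were higher with LPD sires. Ugt2b38 ran from 8.14 to 8.91 in ATF7+/-_CD (median 8.48) and from 8.77 to 9.45 in ATF7+/-_LPD (median 8.87), a difference of 0.43 ± 0.15 SE (95% interval 0.13 to 0.73, adjusted p = 1; set A 0.61, set B 0.32). Its LPD samples lay mostly above the CD samples, with an overlap between 8.77 and 8.91. The other 3 differed by 0.67 ± 0.28 (Ugt2b37), 0.38 ± 0.17 (Ugt2b5) and 0.35 ± 0.17 (Ugt2b35). All 10 Ugt genes had a positive difference, with a median of 0.36 (set A 0.54, set B 0.16), against 0.00 over all genes. The Ugt2b genes and Ugt2a3 are neighbours on chromosome 5, and reading of neighbours' transcripts by their probe sets was not tested. ATF7+/-_CD replicate 6 was its group's lowest sample for Ugt2a3 (8.94), Ugt2b1 (9.95) and Ugt2b37 (5.77), among others, but not for Ugt2b5 or Ugt2b36. Values without it are not given. The fifth gene of the 5 was Gstp3, which was lower with LPD sires (-0.38 ± 0.17 SE, adjusted p = 1). The genes that rose in wild-type mice gave 0.09 ± 0.15 (Gstm6), 0.03 ± 0.14 (Gstm2) and 0.00 ± 0.09 (Gstm5).

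In ATF7+/+ offspring no conjugation gene was called either (1 gene of 13542, 0.00738%), with 2 of 36 at an unadjusted p under 0.05 against 4.59% of all genes. Sult1d1, a sulfotransferase of phenolic substrates and catecholamines, had the smallest p. It ran from 10.49 to 11.12 in ATF7+/+_CD (median 10.82) and from 9.98 to 10.71 in ATF7+/+_LPD (median 10.27). ATF7+/+_LPD was the lowest group of the 6, with a mean of 10.30 ± 0.25 (SD, n = 8), while the other 5 lay between 10.73 and 10.91. The difference was -0.51 ± 0.14 SE (95% interval -0.79 to -0.24, adjusted p = 0.3; set A -0.64, set B -0.43). It passed with array weights (adjusted p = 0.0453), where the share of all genes called is not given. It also passed with array set and Y-linked level both in the fit (0.039, where 0.222% of all genes passed). Ugt2b37 was again higher with LPD sires, by 0.69 ± 0.29 SE (adjusted p = 0.987; set A 1.38, set B 0.25). Its difference was 0.59 ± 0.29 in wild-type mice (adjusted p = 0.304; set A 0.85, set B 0.36; 0.41 without WT_CD replicate 8). It was thus above 0 under all 3 labels and passed under none. Gstm6 gave 0.09 ± 0.15, Gstm4 0.32 ± 0.23 and Gsta3 -0.11 ± 0.07.

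Whether the diet difference itself depended on the label was tested as an interaction. No conjugation gene passed for wild-type against ATF7+/- (0.635% of all genes did; 6 of 36 had an unadjusted p under 0.05, against 9.25%). Gstp3 had the smallest p. Its diet difference was positive in wild-type and negative in ATF7+/- mice, and these differed by 0.92 ± 0.24 SE (adjusted p = 0.0586; set A 1.13, set B 0.82). It passed with array set as a block (0.0313), and without WT_CD replicate 8 it was 0.81 (adjusted p = 0.135). Its highest group mean was that of ATF7+/-_CD, 9.20 ± 0.32 (SD, n = 8), and its lowest that of WT_CD, 8.42 ± 0.57 (SD, n = 7). For Gstm6 the interaction was 0.64 ± 0.21 SE (adjusted p = 0.181; 0.48 without replicate 8), for Gstm7 0.66 ± 0.27 (adjusted p = 0.349; 0.00299 with the block; 0.56 without replicate 8) and for Gstm5 0.33 ± 0.13 (adjusted p = 0.345; 0.27 without replicate 8). For Ugt2b35 it was -0.61 ± 0.24 (adjusted p = 0.32), and -0.82 without replicate 8 (adjusted p = 0.0532). With the block Gstm7, Gstp3 and Gstt1 were called, 8.33% of the 36 against 2.21% of all genes, and within set A Gstm7 and Gstt2 (2.07% of all genes). With the Y-linked level added to the block Gstm6 passed as well (adjusted p = 0.0485), making 4 of 36 (11.1%, against 3.08% of all genes).

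Against ATF7+/+ no conjugation gene passed (0.0222% of all genes did; 3 of 36 at an unadjusted p under 0.05, against 7.06%), and Gstm6 had the smallest p, at 0.64 ± 0.21 SE (adjusted p = 0.335; 0.48 without WT_CD replicate 8), ahead of Gstm2 at 0.50 ± 0.20 (adjusted p = 0.519; 0.41 without it). Within set A 3 genes passed, Gstt2, Sult1d1 and Sult2a8 (3.08% of all genes). Both interactions share the wild-type samples. Between ATF7+/- and ATF7+/+ there was no call among conjugation genes or all genes (0%; 1 of 36 at an unadjusted p under 0.05, against 2.81%), and Sult1d1 gave 0.51 ± 0.19 SE (adjusted p = 1).

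The 3 labels were also compared with both diets averaged, and no conjugation gene passed in any of the 3 comparisons. For ATF7+/+ minus wild-type 3 of all genes passed (0.0222%), and 12 of 36 conjugation genes had an unadjusted p under 0.05 (33.3%, against 12.4% of all genes). Gstm6 was higher by 0.43 ± 0.11 SE (adjusted p = 0.076; 0.016 with array set as a block) and Ugt2b37 by 0.71 ± 0.21 (adjusted p = 0.114; 0.0349 with the block). Next came Ugt2b38 at 0.33 ± 0.11, Sult2a8 at 0.66 ± 0.21 and Ugt2b1 at 0.32 ± 0.11 (adjusted p from 0.152 to 0.161). With the block 3 genes were called, Gstm6, Ugt2b37 and Mgst1 (3.4% of all genes). Once the Y-linked level was added to the block, Gstm6 stayed called, and Ugt2b37 and Mgst1 did not. Without WT_CD replicate 8 Gstm6 was 0.35, Ugt2b37 0.61, Ugt2b38 0.26, Sult2a8 0.68 and Ugt2b1 0.21 higher. For Gstm6, Ugt2b37, Sult2a8 and Ugt2b1 WT_CD had the lowest mean of all groups. The same WT_CD samples enter the wild-type diet difference, so the 2 results are not independent.

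The calls of this comparison lay in 1 array set, and the difference between the sets was not tested. In set A 17 of 36 conjugation genes passed (47.2%, against 28.6% of all genes) and in set B none did (0% of all genes). The difference of Ugt2b37 was 1.26 within set A (adjusted p = 0.000699) but 0.35 within set B (adjusted p = 0.924). Sult2a8 was nearer to even, at 0.77 and 0.57. All 6 ATF7+/+ samples of set A had a high Y-linked level, against 4 of 6 in wild-type; the part of this difference in the result was not tested within set A. Of the 10 Ugt genes 9 had a positive difference, with a median of 0.29 (set A 0.49, set B 0.15), against -0.01 over all genes; without WT_CD replicate 8 it was 0.21, again with 9 above 0.

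For ATF7+/- minus ATF7+/+ 0.155% of all genes passed, and 9 of 36 conjugation genes had an unadjusted p under 0.05 (25.0%, against 11.4%). Sult1d1 was 0.36 ± 0.10 SE higher in ATF7+/- (adjusted p = 0.096; 0.0228 with the block), the ATF7+/+_LPD group being its low one. Sult1a1, the main phenol sulfotransferase, was 0.24 ± 0.08 higher (adjusted p = 0.174) and Gstp3 0.34 ± 0.12 (adjusted p = 0.221), while Ugt2b35 differed by -0.38 ± 0.12 (adjusted p = 0.172). With the block 3 genes passed, Gstz1, Sult1a1 and Sult1d1 (3.24% of all genes), within set A 9 did (22.8% of all genes) and within set B none. Once the Y-linked level was added to the block, Sult1d1 stayed called, and Gstz1 and Sult1a1 did not. Samples of low Y-linked level were 3 of 8 in each ATF7+/- group, 1 of 7 in ATF7+/+_CD and 2 of 8 in ATF7+/+_LPD. For ATF7+/- minus wild-type, with 0.00738% of all genes called, 5 conjugation genes had an unadjusted p under 0.05 (13.9%, against 6.82%). Gstm6 led them at 0.35 ± 0.10 SE (adjusted p = 0.28, and a difference of 0.27 without WT_CD replicate 8). It was the 1 gene that passed within set A (0.953% of all genes), and WT_CD was again its low group.

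**Figure D3:**
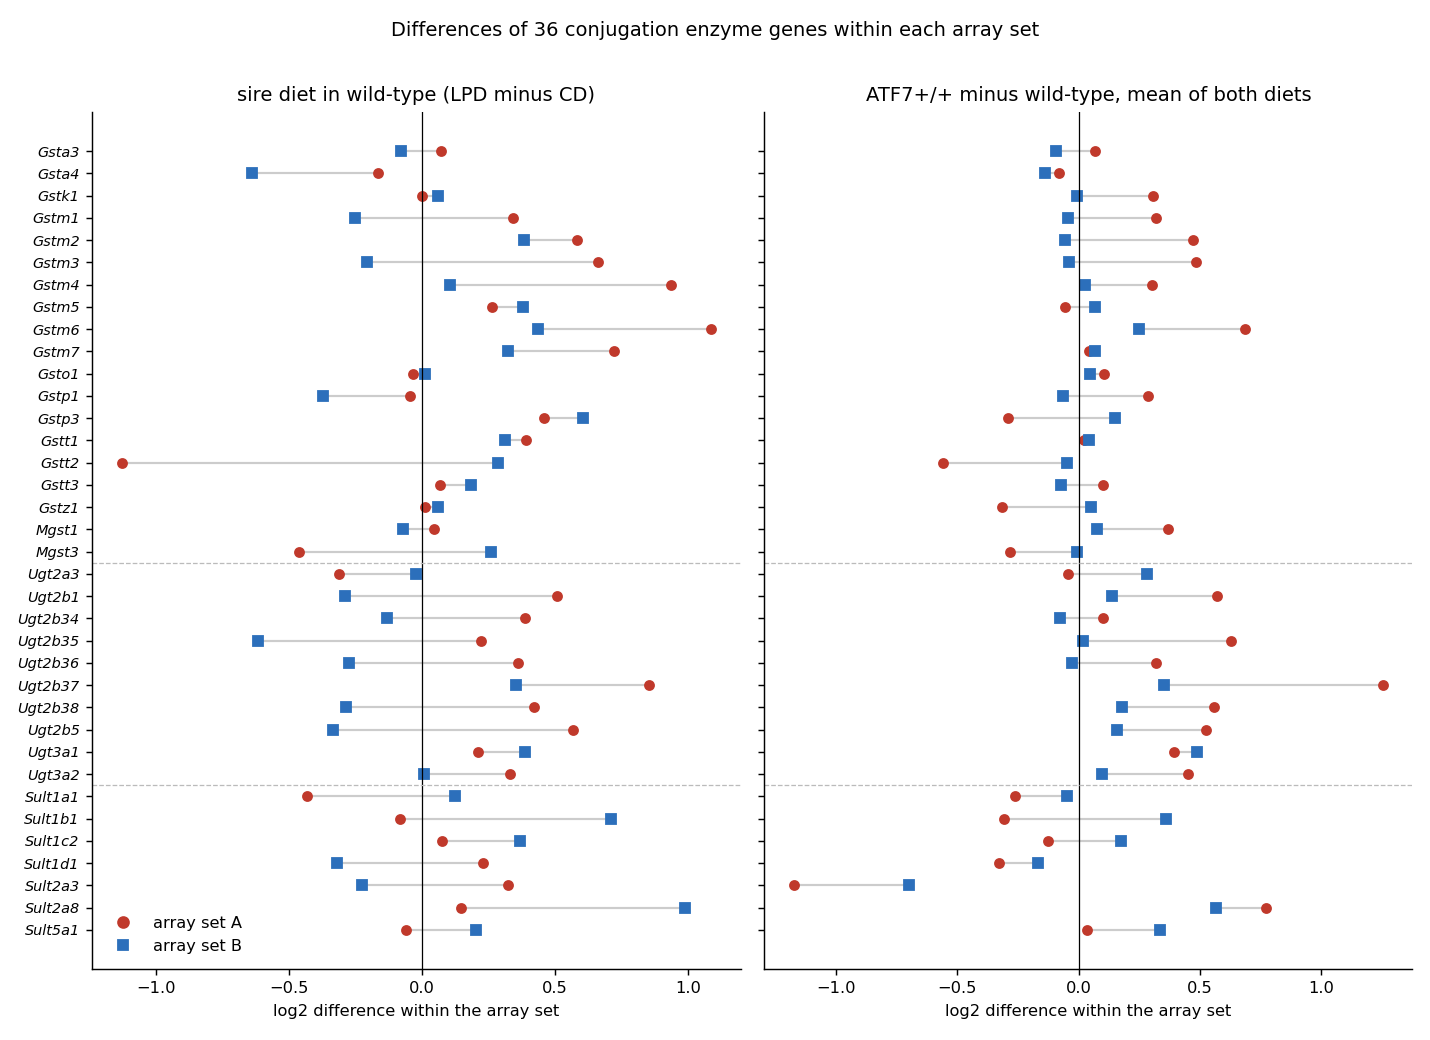
Log2 differences of the 36 tested genes computed within array set A (circles) and within array set B (squares), for sire diet in wild-type mice and for ATF7+/+ minus wild-type with both diets averaged; a grey line joins the 2 values of a gene. Gstm6 is above 0 in both sets of both panels, while Gstt2 is at -1.13 (set A) and 0.29 (set B) for the wild-type diet difference. Both panels use the same wild-type samples and are not independent.

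Over the 6 groups the widest range of means was that of Sult2a3, from 4.37 in ATF7+/+_LPD to 6.13 in ATF7+/-_CD. Ugt2b37 came next, from 6.43 in WT_CD to 7.78 in ATF7+/+_LPD, and WT_CD was also the lowest group for Sult2a8 (8.59, against 9.66 in ATF7+/+_LPD), Gstm6, Gstp3 and Ugt3a1 (8.94, against 9.70 in ATF7+/+_LPD). Ugt3a1 belongs to a small group of transferases that use other UDP sugars. Gsta4, the alpha-class enzyme that clears 4-hydroxynonenal, ran the other way, from 9.39 in ATF7+/-_CD to 9.94 in WT_CD. These ranges are to be read against the spread inside groups. The pooled within-group SD was 1.25 for Sult2a3, higher than in 99.9% of the genes tested, and 0.71 for Gsta4, 0.61 for Gstt3, 0.61 for Sult2a8, 0.60 for Gstm3, 0.58 for Ugt2b37, 0.53 for Ugt3a1, 0.47 for Ugt2a3 and 0.46 for Sult1b1. The median over tested genes was 0.30 for Gst and Mgst, 0.32 for Ugt and 0.41 for Sult, against 0.20 for all genes.

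**Figure D4:**
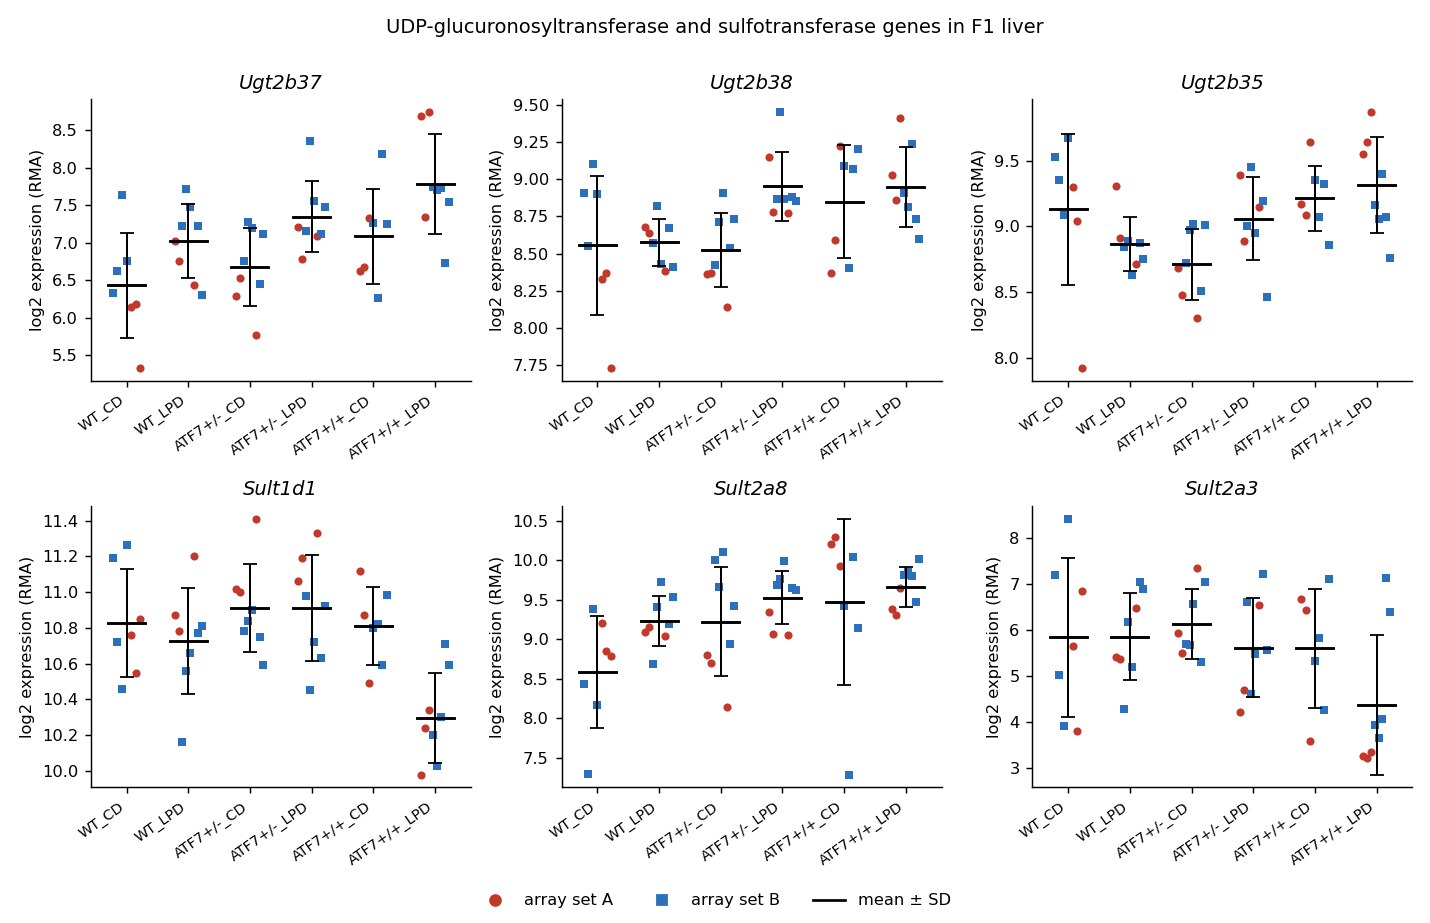
Log2 expression of Ugt2b37, Ugt2b38, Ugt2b35, Sult1d1, Sult2a8 and Sult2a3 in each of the 46 samples, by offspring label and sire diet; circles are array set A, squares array set B, and the black bars give the group mean and SD. Sult1d1 is lowest in ATF7+/+_LPD (mean 10.30), and Sult2a3 spans 3.22 to 7.12 in that group.

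The spread of Sult2a3 followed the Y-linked level. The mean of 3 Y-linked genes was between 7.36 and 8.55 in 32 samples and between 3.74 and 4.19 in 14, with no sample between, and the labels give no sex per animal. Sult2a3 ran from 3.22 to 7.20 in the 32 samples with a high level (median 5.26) and from 5.29 to 8.42 in the 14 with a low one (median 6.96). In all 6 groups the samples of low Y-linked level had the higher mean, and in 3 groups each of them lay above each sample of high level. Fitted as a covariate beside the groups, the Y-linked level had a coefficient of -0.45 ± 0.08 SE per log2 unit for Sult2a3 (adjusted p = 0.000959; -0.40 within set A and -0.46 within set B, each with an adjusted p of 0.12). It was the 1 conjugation gene called of 36, against 0.51% of all genes; with array set as a block Gstt3 joined it (0.679% of all genes).

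In ATF7+/+_LPD the 6 samples of high Y-linked level were the lowest, between 3.22 and 4.06, and the 2 of low level were at 6.39 and 7.12. In ATF7+/+_CD the 6 of high level ran from 3.58 to 6.68 and the 1 of low level was at 7.10. The diet difference of Sult2a3 in ATF7+/+ mice was -1.23 ± 0.62 SE (adjusted p = 1; 0.225 with array set and Y-linked level in the fit). Gstt3, a theta-class gene, had a coefficient of -0.17 ± 0.04 (adjusted p = 0.065) that passed with array set as a block (-0.11, adjusted p = 0.0271). It was not called within set A (-0.10, adjusted p = 0.262) or set B (-0.12, adjusted p = 0.355). Its means were 8.89 at high and 9.43 at low Y-linked level. These means mix the array sets: 14 of 32 high and 4 of 14 low samples are in set A, where Gstt3 was lower by 0.95. Sult3a1, another gene known for sex differences in adult liver, was below the filter, with a within-group SD of 0.78.

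**Figure D5:**
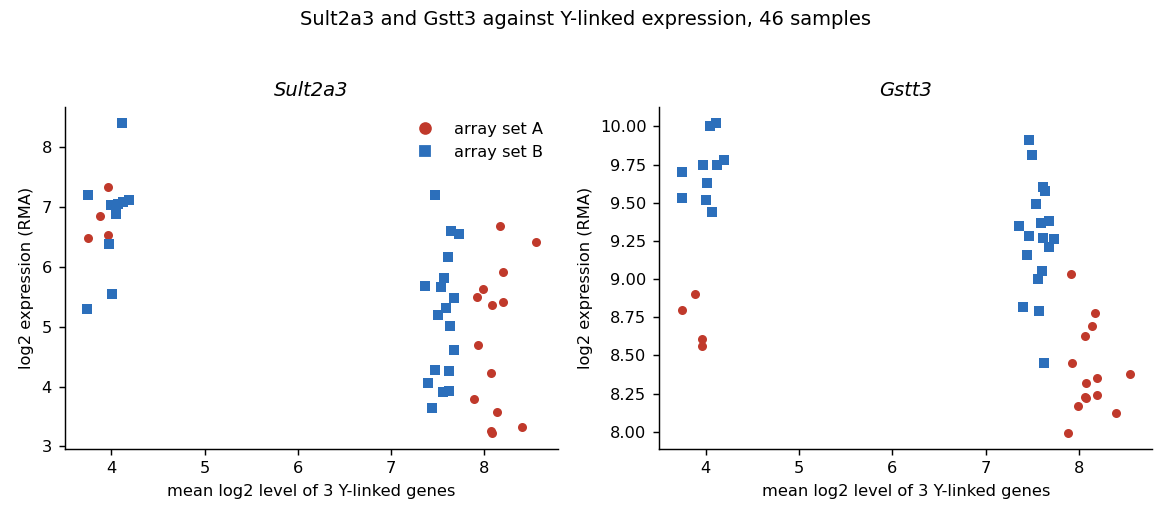
Log2 expression of Sult2a3 and Gstt3 in the 46 samples against the mean log2 level of 3 Y-linked genes; circles are array set A and squares array set B. The 14 samples of low Y-linked level average 6.80 for Sult2a3 and the 32 of high level 5.01.

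The genes that supply and serve the conjugation enzymes were read from fixed lists. The wild-type diet comparison called 3.6% of all genes, and 1.62% without WT_CD replicate 8. Values without that sample are not given for the lists. In wild-type offspring the glutathione supply list had 1 rise and 1 fall among 10 tested genes, with a median of -0.09 against 0.00 for all genes. Ggct, which takes apart gamma-glutamyl peptides, rose (0.53 ± 0.14 SE, adjusted p = 0.0178), and Cth, which makes cysteine from cystathionine, fell (-0.42 ± 0.12 SE, adjusted p = 0.032). Both ran the same way in the 2 array sets. The rate-limiting Gclc and its partner Gclm gave -0.07 ± 0.18 and 0.08 ± 0.18. Of 6 genes for UDP-glucuronic acid supply 1 fell, Slc35d1, a transporter of UDP sugars into the endoplasmic reticulum (-0.54 ± 0.11 SE, adjusted p = 0.00284), while Ugdh, which makes UDP-glucuronic acid, gave -0.60 ± 0.22 (adjusted p = 0.129). None of 7 sulfate donor genes passed by limma, and their median was 0.21. Among 6 export pumps Abcc3, which carries glucuronides back to blood, fell (-0.83 ± 0.22 SE, adjusted p = 0.0257; set A -1.41, set B -0.47).

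None of 14 regulators passed in wild-type mice, with Nfe2l2, the gene of NRF2, at 0.02 ± 0.14 and the CAR gene Nr1i3 at -0.46 ± 0.31. Of 8 NRF2 targets that are not conjugation enzymes, 7 were below 0 and 1 fell, the thioredoxin reductase Txnrd1 (-0.32 ± 0.08 SE, adjusted p = 0.0216); the list's median was -0.26. The list shares Gclc and Gclm with glutathione supply and Abcc4 with the pumps. Of 7 CAR, PXR and AHR targets 1 rose, Cyp2c55 (1.19 ± 0.29 SE, adjusted p = 0.0115; set A 2.04, set B 0.54). In ATF7+/- offspring none of these lists held a call, and in ATF7+/+ offspring the 1 call was the regulator Onecut1.

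Some markers of other liver cells were also called in the wild-type comparison, in which 3.6% of all genes were called. All 8 stellate cell and fibroblast markers were above 0 and 3 rose: Lrat (set A 0.85, set B 0.31), Reln (0.82 and 0.16) and Acta2 (0.74 and 0.59). The mean level of the 8 ran from 8.03 to 8.47 in WT_CD and from 8.47 to 8.76 in WT_LPD. All 7 endothelial markers were above 0 and 1 rose, Cdh5 (set A 0.45, set B 0.27), with mean levels of 8.56 to 9.17 and 8.88 to 9.15. Of 6 erythroid markers 2 passed the filter and Alas2 rose (set A 1.33, set B 0.51), with mean levels of 6.62 to 8.85 and 7.42 to 8.51. Pericentral hepatocytes are the cells around the central vein where drug metabolism is concentrated. Of their 8 markers 6 were above 0 and Rhbg rose (set A 0.49, set B 1.02), with mean levels of 8.53 to 9.80 and 9.27 to 9.80. None of the 8 hepatocyte, 8 Kupffer cell, 3 cholangiocyte, 4 granulocyte, 2 lymphocyte, 4 periportal or 2 exocrine pancreas markers tested passed. Of 13 clock genes 1 fell, Tef, with a list median of -0.34 (set A -0.71, set B -0.03). The list held changes of both signs within set A, from -3.72 for Ciart to 2.24 for Arntl. Within set B these 2 genes were at -0.21 and 0.08, and neither was called over all samples. The part of these cell types and of the clock genes in the rise of the mu-class genes was not tested, and in these bulk samples fewer cells of a type and less RNA per cell cannot be told apart.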

How the data were processed

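The biotin-labelled liver RNA of each mouse was read on 1 Affymetrix array. The authors summarised each probe set on a log2 scale by RMA, using Expression Console from Affymetrix, as the labels' list of processing tools names it; versions and whether all arrays were normalized together are not given in the sources used here. RMA scales arrays to one distribution, so a shift of the whole transcriptome would not show. Arrays have no depth; their number limits the precision.

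The members and lists were chosen with earlier results of these data known. Of 78 array pairs compared within a group and set, 2 differed no more on the 5% most variable than on the 50% most stable genes (ratio under 1.5, the others 1.90 to 5.01) and were averaged, leaving 46 samples. Array sets were split at the widest gap of the first principal component over 5591 probe sets without annotation. Probe sets with 1 symbol and a mean at or above the 40th percentile were kept, 1 a gene (highest mean), leaving 13542 genes. Group means were fitted in limma 3.58.1 (R 4.3.3) with lmFit and eBayes, with Benjamini-Hochberg adjustment over all genes. Symbols of 48 of 48 members were unchanged in RefSeq, from which the promoter windows come. On data simulated for the wild-type diet comparison with 13542 genes the fit recovered 28 of 67 genes changed 1.3-fold, 58 of 67 changed 1.5-fold and 64 of 66 changed 2-fold, and called 9 unchanged genes.

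Replicate numbers are shared across groups. The deviations of same-numbered samples correlated at 0.18 to 0.74 in ATF7+/-, 0.27 to 0.70 in ATF7+/+ and -0.48 to 0.50 in wild-type mice, past a limit of 0.1 for every pair in the first 2 labels. There each of the 8 pairs lies in 1 array set, and within sets the correlations were -0.04 to 0.38, -0.13 to 0.28 and -0.24 to 0.10, so the numbers are not shown to pair samples beyond the array set. Named genes are those called in a comparison, or the 5 with the smallest p where fewer than 5 were called, and the 3 of each family with the largest range of group means or within-group SD. Alternatives covered the filter, normalization, variance prior, array weights, samples fitted, replicate number, array set, Y-linked level and each sample left out.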

Additional observations from a re-analysis of the deposited data

Results flagged for a closer look

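Among 150 combinations of a named gene and a group, 10 held a value far from the rest of the group by Dixon's test. Chance alone does this for about 1 in 20 combinations, so the count is near that share. Some samples appear for more than 1 gene. Of these, 3 were WT_CD replicate 8, low for Gsta4 (8.16, the next value being 9.68), Ugt2b1 (9.22, next 10.41) and Ugt2b35 (7.92, next 9.04). In ATF7+/+_CD, replicate 2 was low for Gstm6 (8.80, next 9.60) and Gsto1 (9.24, next 9.52), replicate 5 was low for Sult2a8 (7.29, next 9.14) and Ugt3a1 (8.02, next 9.23), and replicate 6 was high for Sult3a1 (5.17, next 3.21). Ugt2b1 was low in ATF7+/-_CD replicate 6 (9.95, next 10.51), and Ugt2b35 was high in WT_LPD replicate 1 (9.31, next 8.91).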

How the results depend on the processing

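For sire diet in wild-type mice, where 3 conjugation genes were called, the count was 0 with only the groups compared, 6 with array set as a block (6 with the Y-linked level added), 8 in set A alone and 1 to 4 with 1 sample left out. It was 1 without WT_CD replicate 3 or 8 or WT_LPD replicate 3, 4, 7 or 8. For the remaining comparisons the count was 0, and it rose as follows. In ATF7+/+ mice 1 gene was called with array weights, and 1 with array set and Y-linked level. For the wild-type minus ATF7+/- interaction the counts were 1 with array weights, 3 with the block, 4 with block and Y-linked level, 2 in set A, 1 with all 48 arrays and 0 to 2 with 1 sample left out (above 0 without WT_CD replicate 2, 6 or 7, ATF7+/-_CD replicate 4 or ATF7+/-_LPD replicate 5). For the wild-type minus ATF7+/+ interaction set A gave 3. For ATF7+/+ minus wild-type, quantile normalization, median centring and array weights gave 1 each. The block gave 3 (3.4% of all genes), block and Y-linked level 1, and set A 17 (28.6% of all genes). Leaving out 1 sample gave 0 to 1 (1 without WT_CD replicate 2 or 3 or ATF7+/+_CD replicate 2 or 5). For ATF7+/- minus ATF7+/+ the block gave 3, block and Y-linked level 1 and set A 9, and for ATF7+/- minus wild-type set A gave 1. For 3 named values the sign turned: Gsta3 (0.047 in set A) and Gstm4 (-0.028 in set B) for diet in ATF7+/+ mice, and Sult2a8 (-0.17 in set A) for ATF7+/- minus wild-type. The cause of these changes was not tested. Shares of all genes called with the block and within single array sets are given with each comparison above. For most other fits of this section no such share is given. Their counts are therefore not to be read as results about the conjugation genes. With the replicate number as a block 2 genes (5.56% of 36) were called for diet in wild-type mice, Gstm6 (adjusted p = 0.0118) and Gstt1 (0.0474). Gstm2 (0.0615) and Gstm5 (0.0659) were lost. The share of all genes called in this fit is not given, so the change is not a result about these genes. The replicate block changed no other call of a diet comparison or interaction. Between labels the block has no value, since numbers were blocked within each label. No conjugation gene passed for diet in ATF7+/- mice under any alternative run. Group sizes of 7 and 8 limit the calls for changes near 1.3-fold.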
